A study of Rattus norvegicus with 6 samples.

Results

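Core components of the spliceosome were followed in purified rat pancreatic beta cells, which secrete insulin, with and without knockdown of Nova1, a regulator of alternative splicing that binds RNA. Members were all gene models whose name begins with Snrp, Sf3a, Sf3b, Prpf, Lsm, Cwc or U2af, in either case. The rule took 55 names at 56 gene models of 24579, because Lsm6 stands at a locus on chromosome 13 and at another on chromosome 19. These models hold 164 of 60887 transcripts. All 56 had enough reads to be tested, and the rule uses names only.

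The cells were primary rat beta cells sorted by fluorescence, in 3 batches. Each batch was divided between a control siRNA and an siRNA against Nova1. Both were transfected at 30 nM for 16 h and followed by 48 h of recovery, so the control libraries carry the same transfection. There are 3 control and 3 knockdown libraries, all of polyadenylated RNA of an integrity of 7.5 or more.

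The spliceosome removes introns from pre-mRNA. It is built from small nuclear ribonucleoproteins (snRNPs), each a small nuclear RNA with proteins bound to it, which recognise the splice sites and then rearrange into the catalytic machine. The U1 snRNP binds the 5′ splice site, U2AF marks the 3′ splice site, the U2 snRNP with SF3A and SF3B takes the branch site, and the U4/U6.U5 tri-snRNP then joins. Sm proteins form a ring on most of these RNAs, and the related LSm proteins form the ring of U6.

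Promoters of 45 of the 55 names are held in the RefSeq table on GRCr8, as windows from 250 bases before to 50 bases after the annotated start. Of these, 43 lie on the same chromosome as the measured model and were used. Snrpe (chromosome 13 in GRCr8, 1 in the files) and Prpf40b (7 in GRCr8, X in the files) do not. The motif CCGGAAG, the core bound by ETS factors, was searched on both strands. It was found in 13 of 43 windows (30.2%), against 8.75% of all 33469 windows of the table. The windows around it are shown for the Sm ring genes that hold it, which are 3 of the 6 used, since all members of that ring had differences of the same sign in the knockdown. Capitals mark the motif or its reverse complement.
Snrpb: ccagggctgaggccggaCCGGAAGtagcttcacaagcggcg
Snrpd1: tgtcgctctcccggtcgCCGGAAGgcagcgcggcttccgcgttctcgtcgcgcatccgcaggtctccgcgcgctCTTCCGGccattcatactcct
Snrpg: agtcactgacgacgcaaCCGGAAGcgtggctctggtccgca

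These stretches are chr3:137832497-137832537 (minus strand), chr18:1969629-1969723 (plus) and chr4:120369577-120369617 (plus) of GRCr8. The centre of the motif lies at -38 from the start in Snrpb and at -114 in Snrpg, and Snrpd1 holds it 2 times, at -25 and at 32. The motif was also in 3 of 7 SF3A and SF3B windows, 3 of 11 Prpf windows, 2 of 3 Cwc windows, 1 of 4 U1 and U2 windows, 1 of 10 LSm windows and 0 of 2 U2AF windows. The GC box GGGCGG was in 51.2% of member windows against 33.1% of all, CCAAT in 39.5% against 37.5%, and ATGGCGG in 16.3% against 4.80%. These motifs were searched on both strands too, and none of them contains another. A match is a description of letters, and binding was not measured.

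The full windows are given for 2 further members. Cwc22 is the member whose transcripts differed between the groups in their first exon, and its window is chr3:83271157-83271456 of GRCr8 on the minus strand, with CCGGAAG (as CTTCCGG) in capitals. Prpf39 had the smallest adjusted p of the members, and its window is chr6:88824990-88825289 on the plus strand, with the GC box in capitals.
Cwc22: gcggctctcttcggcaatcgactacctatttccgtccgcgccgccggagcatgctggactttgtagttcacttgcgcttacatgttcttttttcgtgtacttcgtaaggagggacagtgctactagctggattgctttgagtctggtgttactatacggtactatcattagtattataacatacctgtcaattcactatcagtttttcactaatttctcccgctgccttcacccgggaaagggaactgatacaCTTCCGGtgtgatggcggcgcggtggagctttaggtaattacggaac
Prpf39: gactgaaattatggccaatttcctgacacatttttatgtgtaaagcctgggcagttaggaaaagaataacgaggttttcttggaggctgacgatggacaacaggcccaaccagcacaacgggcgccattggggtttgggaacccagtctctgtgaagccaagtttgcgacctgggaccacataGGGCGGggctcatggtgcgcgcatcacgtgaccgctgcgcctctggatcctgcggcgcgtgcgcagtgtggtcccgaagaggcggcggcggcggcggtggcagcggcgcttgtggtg

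Between 122637234 and 292432076 reads were assigned in a control library and between 95394043 and 146453308 in a knockdown library, always more in the control of a batch. Nova1 stood at 20.6, 21.5 and 17.4 CPM (reads scaled to library size) in control against 7.76, 10.2 and 9.43 CPM in knockdown libraries, with no overlap, and fell by 1.12 on the log2 scale (SE 0.11; limma, adjusted p = 0.038). In RPKM it stood at 5.06, 2.83 and 2.03 in control against 1.38, 2.38 and 1.81 in knockdown libraries, lower in each batch but with overlap between groups. It passed the test in 7 of 12 alternative fits, with log2 fold changes from -1.25 to -0.54, the smallest in the fit on log2(RPKM + 1). Markers of beta cells summed to between 294987 and 479879 RPKM (reads per length of transcript and depth of library) in control and between 219732 and 484208 in knockdown libraries, and the lowest sum of either group was in batch 2. Markers of other islet endocrine cells summed to 5530, 14478 and 7887 RPKM in control batches 1, 2 and 3. In knockdown they summed to 7387, 15776 and 10198 RPKM, higher in each batch. Acinar markers summed to 218 to 596 RPKM in control against 160 to 451 in knockdown libraries, immune markers to 14.1 to 16.9 and 13.2 to 25.0, and stellate and fibroblast markers to 6.98 to 15.3 and 17.3 to 23.0. In the same order 1 of 10 acinar models fell, 1 of 8 immune models rose and 1 fell, and 2 of 7 stellate models rose in limma. Of the 8 immune models, 6 had positive and 2 negative log2 fold changes, with a median of 0.79. Duct markers summed to 155, 116 and 135 RPKM in control against 201, 134 and 178 in knockdown batches 1, 2 and 3. Neuron and Schwann cell markers summed to 8.40, 11.2 and 5.20 RPKM against 10.9, 14.3 and 9.07, so both lists were higher in each batch. Endothelial markers summed to at most 0.28 RPKM, with 2 of 4 at 0 in some library. Of the other lists, 1 of 3 neuron and Schwann cell models rose, and 0 of 8 beta cell, 0 of 5 other endocrine, 0 of 3 duct and 0 of 2 endothelial models passed in limma. The part of these other cells in the results on the members was not tested, and in bulk RNA fewer cells of a type and less RNA per cell cannot be told apart.

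Core spliceosome genes were moderately abundant in these cells. Their mean level over 6 libraries ran from 1.16 to 124 RPKM with a median of 13.2, against a median of 4.98 over all models tested. Of the 56 models, 34 lay above 10 RPKM and 22 between 1 and 10. Together they took 0.212%, 0.258% and 0.196% of the reads in control batches 1, 2 and 3 and 0.217%, 0.266% and 0.210% in knockdown. The SF3A and SF3B subunits (median 17.7 RPKM, lowest 11.2) and the Sm ring (median 19.1) stood above the Prpf proteins (median 8.33) and the Cwc proteins (median 4.03).

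Prpf19, the ubiquitin ligase of the Prpf19 complex that activates the spliceosome, was the most abundant member. Its level was 127, 122 and 121 RPKM in control against 128, 123.04 and 125 in knockdown libraries of batches 1, 2 and 3, an almost flat series in which the groups overlapped. Snrpd2, of the Sm ring, came next with 83.9, 70.0 and 91.7 RPKM in control against 82.8, 49.4 and 82.7 in knockdown, lowest in both libraries of batch 2. Snrpg of the same ring reached 63.8, 52.5 and 69.8 RPKM in control against 65.5, 35.9 and 63.0 in knockdown libraries, with the same low batch. Prpf8, the large scaffold protein of the U5 snRNP around the catalytic RNA, lay between 43.1 and 61.4 RPKM, and Sf3b5, a small SF3B subunit, between 38.7 and 65.6. U2af2, the large U2AF subunit that binds the polypyrimidine tract, lay between 40.7 and 47.5 RPKM.

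**Figure D1:**
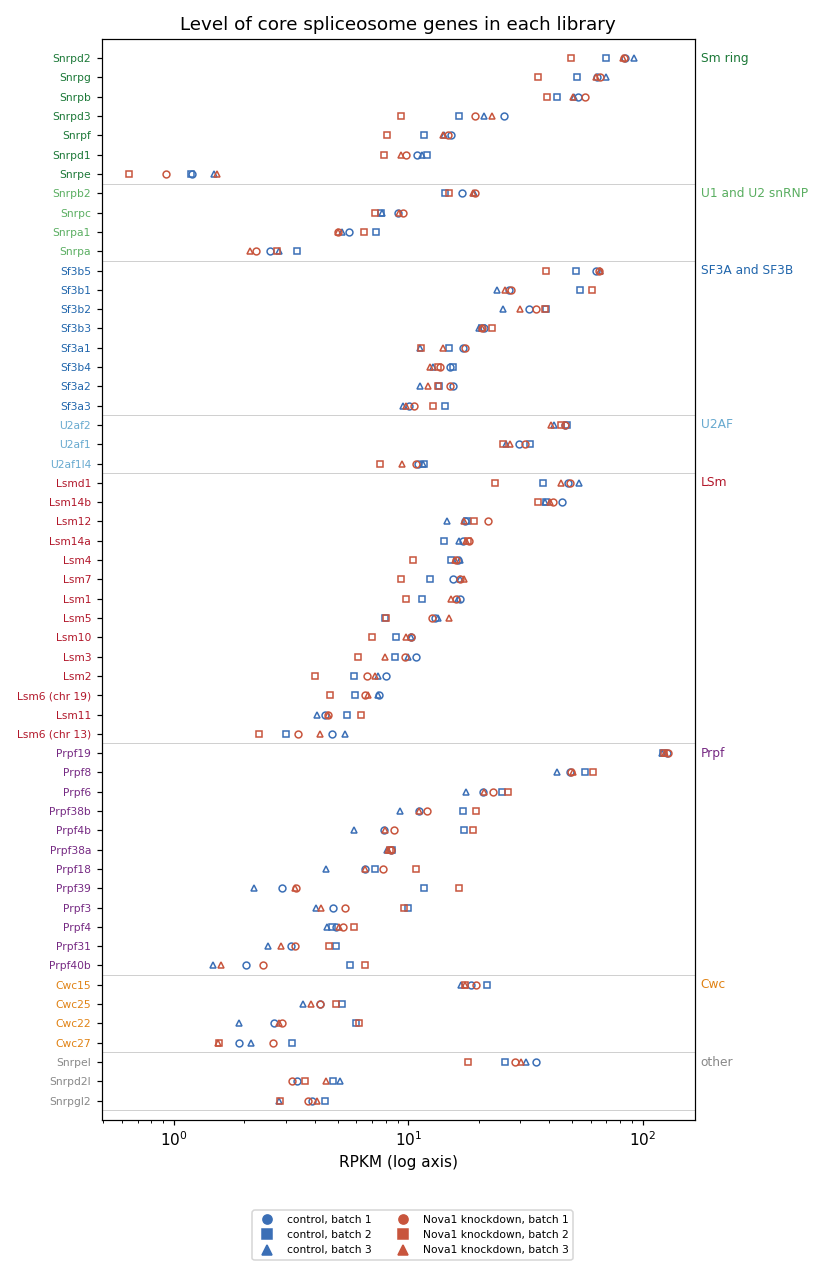
RPKM (log axis) of 55 of the 56 gene models in each of the 6 libraries, grouped by role. Blue symbols are control and red symbols knockdown libraries, and the shape gives the batch. Prpf19 stands highest at a mean of 124 RPKM and the model named Snrpe, which may be a copy, lowest at 1.16. The squares of batch 2 are displaced from the other batches in many Prpf and LSm genes.

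The model named Snrpe is a single exon of 279 nt on chromosome 1 and had as few as 18 reads in a library. The model named Snrpel, a single exon of the same length on chromosome 8, held between 95.2% and 96.9% of the RPKM of both. Snrpd2l held 3.71% to 6.82% of the sum of Snrpd2 and Snrpd2l, and Snrpgl2 held 3.86% to 7.75% of the sum of Snrpg and Snrpgl2. How reads that suit a gene and its copy were divided is not given in the sources used here, so the split within each of these pairs is uncertain, as is that between both Lsm6 loci. Beside these, 10 members share exon positions with a neighbouring gene, 8 of them with a gene of the opposite strand. Without the strand setting the reads of these 8 cannot be told apart from those of the neighbour. Cwc15 (with Kdm4d) and Lsmd1 (with Cyb5d1 and Tmem88) are among them. Sf3b4 (with Mtmr11) and U2af2 (with Ccdc106) overlap a gene of the same strand, where a strand setting would not separate the reads.

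No core spliceosome gene passed the test for a difference in total RNA between knockdown and control. In limma 0 of 56 members had an adjusted p below 0.05, against 274 of 15983 models tested (1.71%). At an unadjusted p below 0.05 there were 10 of 56 members, 2 with a higher and 8 with a lower knockdown value, against 23.9% of all models. The limma-trend fits on log2 RPKM also called 0 members, and the share of all models called in those fits is not given here. The knockdown library was the lower one in 3 of 3 batches for 23 of 56 members, against 24.3% of all models, and the higher one for 9 of 56, against 25.8% of all models. In CPM the 3 control and 3 knockdown values did not overlap for 3 of 56 members with lower knockdown values, against 4.08% of all models. With higher knockdown values this held for 0 members, against 3.99% of all models. The median log2 fold change was -0.07 over the members and 0.00 over all models, and by batch it was -0.01, -0.18 and -0.01.

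**Figure D2:**
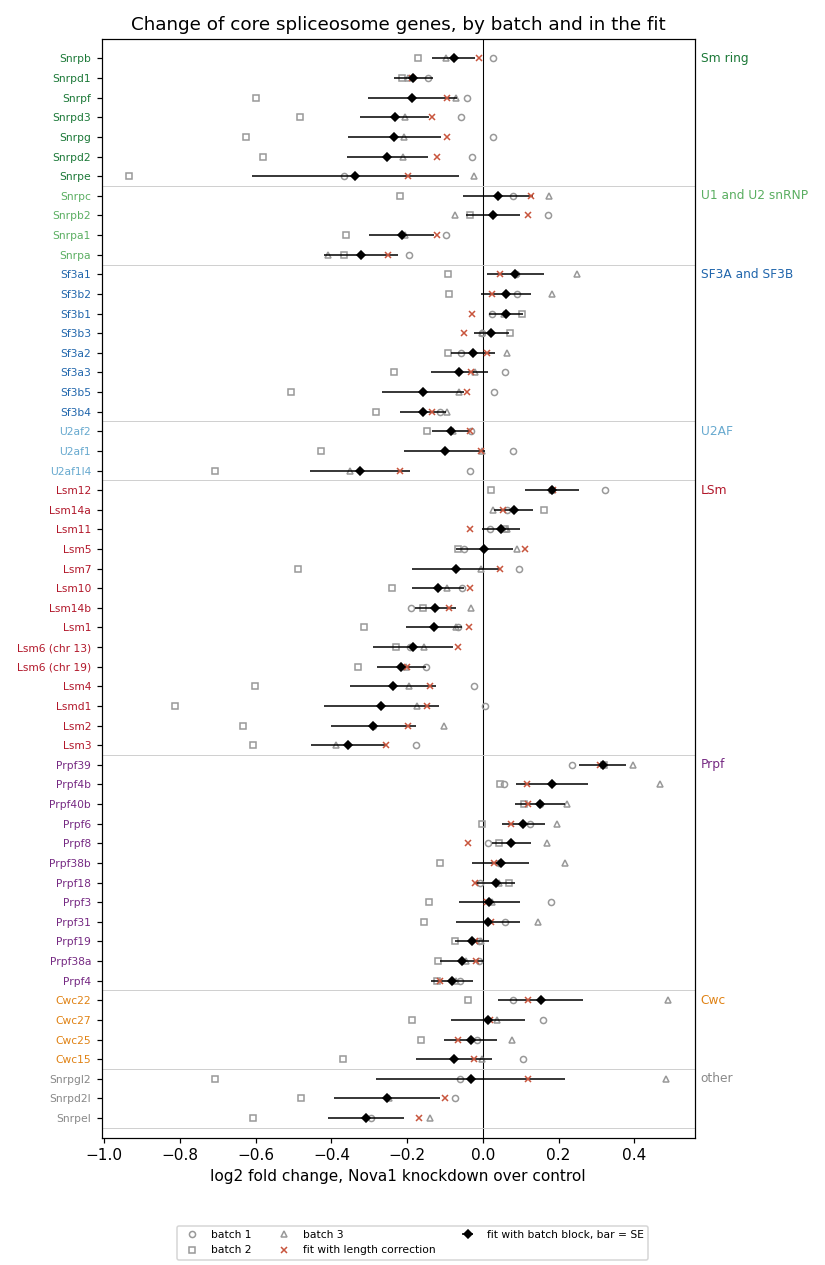
log2 fold change, Nova1 knockdown over control, for 55 of the 56 gene models by role. Black diamonds with bars are the blocked fit and its SE, grey symbols the 3 batches, and red crosses the fit after a correction for transcript length. Sm ring genes all lie left of 0 with batch 2 farthest left, and most Prpf genes lie right of 0.

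The Sm ring proteins all had negative differences, and batch 2 supplied most of their size. The median of the 7 was -0.23 on the log2 scale, with medians of -0.04, -0.58 and -0.20 in batches 1, 2 and 3, and 0 of 7 passed in limma. Snrpd2 stood at 47.9, 36.8 and 54.2 CPM in control against 46.9, 24.6 and 46.9 CPM in knockdown libraries. The knockdown was the lower library in each batch, but the groups overlapped, and the log2 fold change was -0.25 (SE 0.11; limma, adjusted p = 0.23). Snrpd1, the D1 protein, was measured at 25.0, 29.3 and 23.9 CPM in control against 22.6, 25.2 and 20.9 CPM in knockdown libraries. On this scale its differences were alike in the 3 batches (-0.14, -0.21 and -0.20), and it had the smallest adjusted p of the ring (limma, 0.126). Its RPKM values were 10.9, 12.03 and 11.4 in control against 9.79, 7.898 and 9.33 in knockdown libraries of batches 1, 2 and 3. These did not overlap between groups, and the gap was widest in batch 2, so the likeness of the batches held in CPM only. Snrpb, which encodes SmB, stood at 69.7, 55.1 and 69.5 CPM in control against 71.0, 48.9 and 65.0 CPM in knockdown, with both batch 2 libraries lowest (log2 fold change -0.08, SE 0.06). The model named Snrpe was at 0.35, 0.32 and 0.46 CPM in control against 0.27, 0.17 and 0.45 in knockdown, and its error (0.27) nearly equals its log2 fold change of -0.34. RefSeq places Snrpe on chromosome 13 of GRCr8, so this single-exon model on chromosome 1 may itself be a copy. Its level and sign, counted among the 7, may therefore not be those of the Snrpe gene. The copies Snrpel and Snrpd2l stood at -0.31 (SE 0.10) and -0.25 (SE 0.14) on the log2 scale, and neither passed in limma (adjusted p = 0.158 and 0.321).

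Proteins specific to the U1 and U2 snRNPs divided evenly in sign. Snrpa, which binds a loop of U1 RNA, was at 3.25, 4.02 and 3.64 CPM in control against 2.84, 3.12 and 2.74 CPM in knockdown libraries. All 3 knockdown values in CPM lay under all 3 control values, and the log2 fold change was -0.32 (SE 0.10; limma, adjusted p = 0.142). In RPKM the groups overlapped, with 2.75 in knockdown batch 2 against 2.57 in control batch 1. Reads of Snrpa overlap those of BC024978 on the opposite strand. Snrpa1, a protein of the U2 snRNP, was at 5.63, 6.97 and 5.86 CPM in control against 5.26, 5.42 and 5.08 in knockdown, again without overlap (log2 fold change -0.21, SE 0.09; limma, adjusted p = 0.212). In RPKM its groups overlapped too, with 6.48 in knockdown batch 2 against 5.59 and 5.23 in control batches 1 and 3. The partner of Snrpa1 on U2 RNA is Snrpb2, a relative of Snrpa. Snrpb2 was at 17.2, 13.4 and 20.03 CPM in control against 19.3, 13.1 and 19.0 in knockdown, with no constant sign (log2 fold change 0.03, SE 0.07). Snrpc, which helps U1 hold the 5′ splice site, had a log2 fold change of 0.04.

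The SF3A and SF3B subunits, which clamp U2 to the branch site, had a median log2 fold change of 0.00 and ranged from -0.16 to 0.09. Sf3b4 was at 29.5, 28.7 and 26.7 CPM in control against 27.3, 23.6 and 25.0 CPM in knockdown libraries. It was the lower library of each batch, with overlap, at a log2 fold change of -0.16 (SE 0.06; limma, adjusted p = 0.1998). Sf3b5 was at 45.9, 34.8 and 49.2 CPM in control against 46.8, 24.4 and 47.1 CPM in knockdown, so its log2 fold change of -0.16 (SE 0.11) came from batch 2, where the difference was -0.51. Sf3b1, the large subunit that contacts the branch site, had a log2 fold change of 0.06 (SE 0.05) and was higher in the knockdown library of each batch. With the correction for transcript length its value was -0.03, with 0.010, 0.007 and -0.10 in batches 1, 2 and 3. U2AF gave 3 negative values with a median of -0.10. U2af1l4, a relative of the small subunit, was at 8.27, 8.17 and 9.08 CPM in control against 8.07, 4.996 and 7.11 in knockdown. Its values did not overlap, and its log2 fold change was -0.33 (SE 0.13; limma, adjusted p = 0.217). Exons of Lin37 and Psenen lie over it on the opposite strand. U2af1, the small subunit that reads the AG of the 3′ splice site, was at 28.6, 29.3 and 26.4 CPM in control against 30.2, 21.8 and 26.3 in knockdown, with a log2 fold change of -0.10 (SE 0.11). U2af2 had -0.08 (SE 0.05).

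LSm proteins 2 to 7 serve both the nuclear ring of U6 and, together with Lsm1, the cytoplasmic ring of mRNA decay. Of 14 LSm models, 10 had negative and 4 positive values, with a median of -0.13 and medians of -0.05, -0.28 and -0.08 by batch. Lsm3 was at 8.16, 6.09 and 7.82 CPM in control against 7.22, 4.001 and 5.98 in knockdown libraries. The knockdown was lower in each batch and the groups overlapped through batch 2, with a log2 fold change of -0.36 (SE 0.10; limma, adjusted p = 0.126), the most negative of the members. Lsm2 was at 6.94, 4.67 and 6.68 CPM in control against 5.68, 3.01 and 6.22 in knockdown, with a like pattern (log2 fold change -0.29, SE 0.11; limma, adjusted p = 0.203). Lsmd1, a subunit of an N-terminal acetyltransferase rather than of a snRNP, had the highest mean RPKM of the group (42.7) and was at 28.7, 18.5 and 29.2 CPM in control against 28.8, 10.5 and 25.8 in knockdown. Batch 2 again held the low values, and the log2 fold change was -0.27 (SE 0.15).

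The related LSm genes Lsm14a and Lsm14b had values of opposite sign. Lsm14a, a component of cytoplasmic mRNP granules, was at 53.0, 43.4 and 52.4 CPM in control against 55.4, 48.5 and 53.3 in knockdown (log2 fold change 0.08, SE 0.05). Its relative Lsm14b was at 80.7, 63.9 and 69.3 CPM in control against 70.8, 57.3 and 67.8 in knockdown (log2 fold change -0.13, SE 0.05). Neither passed in limma (adjusted p = 0.378 and 0.232). Lsm10 and Lsm11, the proteins that replace Sm members in the U7 snRNP of histone mRNA processing, stood at -0.12 (SE 0.07) and 0.05 (SE 0.05) on the log2 scale, and at -0.03 and -0.04 with the correction for transcript length. Lsm12 had the largest positive value of the group, 0.18 (SE 0.07; limma, adjusted p = 0.202).

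Prpf proteins work mostly in the tri-snRNP and the catalytic steps, and 10 of 13 had positive values with a median of 0.05. Prpf39, named for a yeast U1 snRNP protein, was at 7.58, 26.9 and 7.31 CPM in control against 8.93, 33.5 and 9.61 in knockdown libraries. The knockdown was higher by 0.24, 0.32 and 0.40 on the log2 scale in batches 1, 2 and 3, while both batch 2 libraries stood far above the others, so the groups overlapped. The log2 fold change was 0.32 (SE 0.06), and at an adjusted p of 0.074 in limma it was the member closest to the threshold. Across the alternatives its adjusted p in limma ran from 0.054 to 1.00, the highest being the fit without the block. Prpf4b, a kinase of the tri-snRNP, was at 34.8, 73.0 and 28.1 CPM in control against 36.2, 75.3 and 38.8 in knockdown, and its log2 fold change of 0.18 (SE 0.10) rested largely on batch 3. Prpf40b, a relative of a yeast protein that bridges both ends of the intron, had a log2 fold change of 0.15 (SE 0.07), positive in each batch (limma, adjusted p = 0.241). Prpf38a and Prpf38b had -0.05 (SE 0.06) and 0.05 (SE 0.07), without a constant sign in Prpf38b.

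Cwc proteins join around catalysis. Cwc22, which brings Eif4a3 to the spliceosome for the exon junction complex, was at 8.92, 18.3 and 6.52 CPM in control against 9.43, 17.8 and 9.15 in knockdown libraries. The groups overlapped, and the difference of 0.15 (SE 0.11) on the log2 scale came mostly from batch 3 (0.49; limma, adjusted p = 0.442). Cwc15 was at 28.1, 30.1 and 26.4 CPM in control against 30.2, 23.3 and 26.3 in knockdown, with a log2 fold change of -0.08 (SE 0.10). Cwc25 and Cwc27 had -0.03 and 0.01.

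Differences of the members were ordered with the length of their transcripts. Length here is the mean over the transcripts of a gene, weighted by RPKM. Across the 56 members, Spearman's rho between length and log2 fold change was 0.76, against 0.33 across all 15983 models, and it was 0.44, 0.84 and 0.60 in batches 1, 2 and 3. The points are genes of the same 6 libraries and are not independent replicates. Sm ring transcripts had a median length of 849 nt and LSm transcripts of 853 nt, while Prpf transcripts had 3037 nt. After each library's trend on length was removed, rho among the members was 0.38, the median of the Sm ring was -0.12, of LSm -0.05 and of Prpf 0.02, and 0 of 56 members passed in limma, against 3.89% of all models. The Sm ring kept 7 of 7 negative values in that fit, but they reached nearly 0. They ran from -0.20 for the model named Snrpe (SE 0.23) to -0.01 for Snrpb (SE 0.04). Prpf39 stayed at 0.31 (limma, adjusted p = 0.054).

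**Figure D3:**
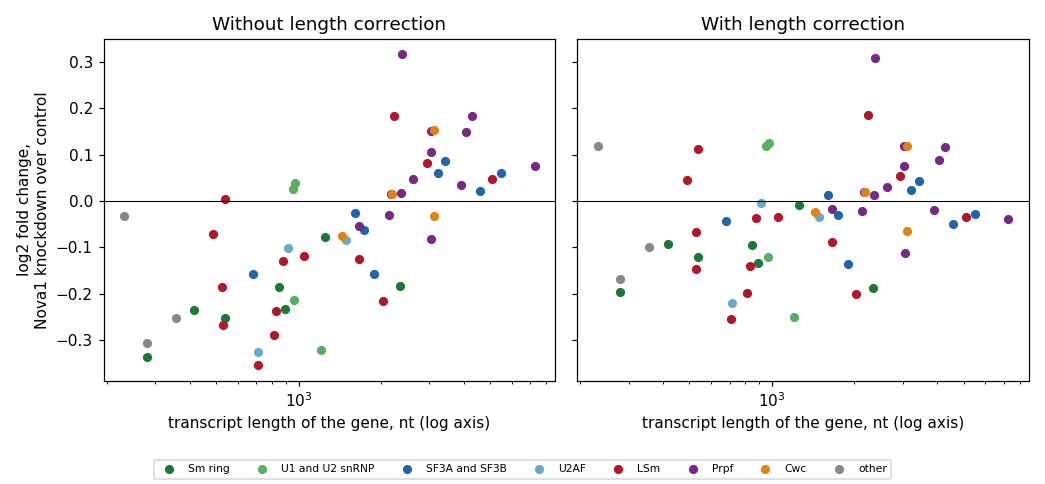
log2 fold change, Nova1 knockdown over control, against transcript length (log axis) for the 56 gene models, coloured by role, without (left) and with (right) removal of each library's trend on length. Short Sm ring and LSm genes lie low and long Prpf genes high on the left (rho 0.76), and the slope is smaller on the right (rho 0.38).

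Batch differences were common among these genes, as among all models. A contrast of batch 2 with the mean of batches 1 and 3 was added after the values were seen, in the same fit. It passed in limma for 14 of 56 members with higher values in batch 2, against 29.1% of all models, and for 21 with lower values, against 26.7%, and 21 did not pass. Of the Prpf genes 8 were higher and 1 lower, of the LSm genes 1 was higher and 12 lower, of the Sm ring 1 higher and 4 lower, and of the Cwc genes 2 higher and 0 lower. With the length correction, 15 of 56 members were higher, against 26.3% of all models, and 17 lower, against 28.8%, among them 8 higher and 2 lower Prpf genes and 0 higher and 8 lower LSm genes. The labels name the batches by number only, and what distinguishes batch 2 was not tested.

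Prpf39 showed this most, with 2.89 and 2.20 RPKM in control batches 1 and 3 against 11.6 in batch 2, and 3.30 and 3.29 against 16.5 in knockdown. The batch 2 difference was 1.85 on the log2 scale. For Sf3b1 the levels were 26.8 and 23.9 RPKM against 54.0 in control against 27.4 and 25.9 against 60.6 in knockdown (difference 1.13 on the log2 scale), so each batch 2 library stood above the 4 others. Prpf40b, Prpf4b, Cwc22 and Prpf3 were higher in batch 2 by 1.58, 1.12, 1.10 and 0.93 on the log2 scale. At the other end, Lsmd1 and Lsm5 had differences of -0.97 and -0.92. Glucagon RNA (Gcg), of alpha cells, was at 4728 and 7084 RPKM in control batches 1 and 3 against 12641 in batch 2, and insulin RNA (Ins1) at 299976 and 312886 against 190653. In knockdown libraries Gcg was at 6466 and 9214 RPKM against 14249, and Ins1 at 310172 and 299186 against 139929. The part of either in the batch differences was not tested.

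**Figure D4:**
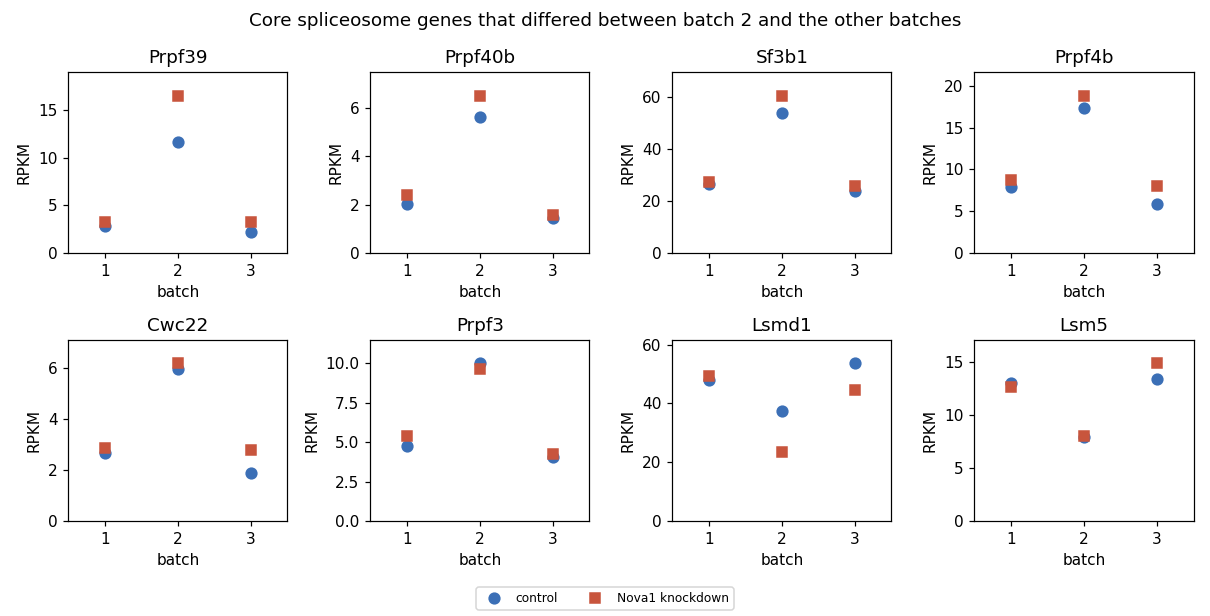
RPKM by batch for 8 members that differed between batch 2 and the other batches, with control as blue circles and knockdown as red squares, and each axis starting at 0. In the first 6 genes both batch 2 libraries lie above the others, as for Prpf39 at 11.6 and 16.5 RPKM, and in Lsmd1 and Lsm5 below.

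Transcript use within genes gave 1 member past the test. Of the 56 models, 41 have several transcripts and 15 have 1, and 128 transcripts of 40 genes had enough reads. In limma diffSplice 2 of 128 transcripts passed, against 0.302% of all 31429 tested, and 1 of 40 genes, against 0.702% of all 9538 tested, all in Cwc22. At an unadjusted p below 0.05 there were 18 of 128 transcripts, against 9.01% of all, and 8 of 40 genes, against 12.2% of all. Shares below are percentages of the summed RPKM of a gene, and 40 of the 128 transcripts have a listed value of 0 in some library, which can be a failed estimate.

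The first exon of the main transcript of Cwc22 (Rnor_5.0, chromosome 3, 71298090 to 71346779, minus strand) was exchanged in the estimates. A transcript of 3134 nt held 88.5%, 84.0% and 88.5% of the gene in control against 0.67%, 7.04% and 3.38% in knockdown libraries of batches 1, 2 and 3. A transcript of 3097 nt was listed at 0 in the 3 control libraries and held 85.7%, 83.5% and 83.6% in knockdown, from 1008, 1610 and 1089 estimated reads. The values of the groups lie far apart in both transcripts, while the third one of 3096 nt, which matches a reference transcript, stayed between 9.45% and 16.0%. The first share fell and the second rose (limma diffSplice, adjusted p = 0.033 and 0.011; gene, adjusted p = 0.0074). The gene's total did not pass the test.

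Both Cwc22 transcripts have 20 exons and differ in the first only. It spans 71346616 to 71346687 (72 nt) in the transcript that fell and 71346745 to 71346779 (35 nt) in the one that rose, so their starts are 92 nt apart. The other 19 exons are identical, and 3062 bases are shared, 97.7% of the one and 98.9% of the other. They can be told apart only by these 72 and 35 nt and the junction that follows. The 3096-nt transcript starts with an exon of 37 nt, 71346616 to 71346652, inside the first exon of the transcript that fell. It held 13.7%, 9.45% and 13.1% in knockdown libraries, so part of that exon stayed in the knockdown estimates. Each of 8 alternative fits kept the rising transcript past the threshold, and 7 of 8 kept the falling one, which had an adjusted p of 0.086 in limma diffSplice with a filter 5 times stricter. The RefSeq window of Cwc22 shown above is on another build, and these exons were not placed in it.

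**Figure D5:**
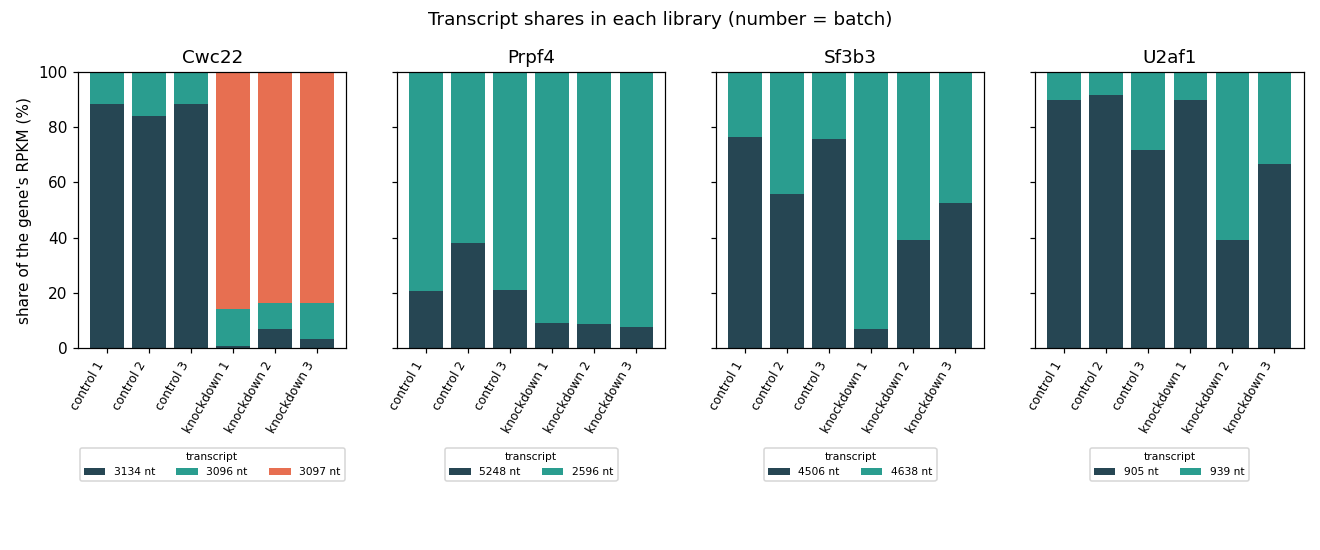
Share of each transcript in the summed RPKM of its gene (percent), stacked per library, for Cwc22, Prpf4, Sf3b3 and U2af1, with transcripts named by length. In Cwc22 the 3134-nt transcript gives way to the 3097-nt one in the 3 knockdown libraries, and in Sf3b3 and U2af1 the knockdown libraries differ widely among themselves (7.12% to 52.6% and 39.3% to 89.7%).

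Prpf4, a protein of the U4/U6 snRNP, came closest among the other genes. Its transcript of 5248 nt held 20.6%, 38.1% and 21.3% in control against 9.03%, 8.95% and 7.51% in knockdown libraries, without overlap, and it missed the threshold (limma diffSplice, adjusted p = 0.131; gene, adjusted p = 0.078). It ends in an exon of 3782 nt (chromosome 5, 82399756 to 82403537 of Rnor_5.0), where the transcript of 2596 nt has 1149 nt, so their ends lie 2633 nt apart. The sign of the difference in the total of Prpf4 differed between scales. In CPM it was 16.4, 16.7 and 15.7 in control against 15.8, 15.4 and 14.9 in knockdown (log2 fold change -0.08, SE 0.06). In RPKM it was 4.92, 4.74 and 4.504 in control against 5.27, 5.86 and 5.05 in knockdown, which is 0.16 in the limma-trend fit on log2(RPKM + 1). Neither passed in limma (adjusted p = 0.403 and 0.295).

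Sf3b3, a large SF3B subunit, has transcripts with a first exon of 103 or 235 nt. The one with 103 nt held 76.3%, 55.9% and 75.8% in control against 7.12%, 39.3% and 52.6% in knockdown libraries. The knockdown was lower in each batch by very different amounts (limma diffSplice, adjusted p = 0.462). U2af1 has a pair of 67-nt exons used in place of each other, at 12587060 to 12587126 and at 12587911 to 12587977 of chromosome 20 (Rnor_5.0), which is known for this gene. The transcript with the first of these held 89.7%, 91.8% and 71.7% in control against 89.7%, 39.3% and 66.7% in knockdown, so only batch 2 showed a wide gap (limma diffSplice, adjusted p = 0.816). In Cwc15 the transcript of 1348 nt held 54.6%, 60.04% and 53.8% in control against 26.1%, 40.6% and 49.8% in knockdown, without overlap (limma diffSplice, adjusted p = 0.429). For Lsm6 on chromosome 13 the transcript of 243 nt held 72.5%, 45.1% and 66.5% in control against 58.5%, 28.6% and 52.6% in knockdown, lower by 13.9, 16.4 and 13.9 percentage points (limma diffSplice, adjusted p = 0.539). In Cwc27 the transcript of 1396 nt held 27.4%, 28.2% and 22.7% in control against 23.4%, 0% and 6.86% in knockdown, with overlap (limma diffSplice, adjusted p = 0.893).

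Other spliceosome genes and related factors were read from 9 lists of 79 names outside the rule. Further snRNP proteins, helicases and the exon junction complex were among them. Sm ring assembly and decapping factors, which are not parts of the spliceosome, were included too. The 9 lists gave 79 gene models, and the counts below are of models. Nhp2l1 and NHP2L1 are separate models among them. In limma 1 of the 79 rose and 0 fell, against the 1.71% of all models, and 18 of 79 had an unadjusted p below 0.05, against 23.9% of all models, 10 with higher and 8 with lower knockdown values. Their median log2 fold change was -0.01. The gene that passed was Zrsr1, a U2AF-related protein that reads the 3′ splice site of minor introns, 1 of the 6 genes in the minor spliceosome list. It was at 3.51, 5.55 and 2.41 RPKM in control against 5.46, 8.73 and 5.14 RPKM in knockdown libraries, higher in the knockdown of each batch with overlap between groups. Its log2 fold change was 0.73 (SE 0.11; limma, adjusted p = 0.048). Only 2 of 12 alternative fits kept it past the threshold, and over them its adjusted p in limma ran from 0.034 to 1.00. Lists on Sm ring assembly (12 genes), the exon junction complex (5) and the decapping partners of the cytoplasmic LSm ring (8) had 0 genes past the test in limma, with 1, 0 and 2 at an unadjusted p below 0.05.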

How the data were processed

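Primary rat beta cells were sorted by flow cytometry in 3 batches, and each batch gave 1 control and 1 Nova1 siRNA library of poly(A) RNA, per the labels' protocols. Titles give the group of a library and its batch number. The submitters' processing notes name TopHat and the rat build Rnor_5.0. For each transcript of an assembly the authors deposited an estimated read number, a length and an RPKM value, written as attributes. How reads were divided among transcripts, with which program and with which strand setting, is not given in the sources used here.

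Reads and RPKM were summed by gene model (a locus and a gene name), and the 56 models of 24579 were found by name. Members, lists and tests were chosen with earlier results of these data known. Tested models (15983) had at least 3 libraries with 10 reads, rescaled to median depth, and a sum of 15 or more. Libraries were scaled by the trimmed mean of M values and fitted with voom in limma 3.58.1 (R 4.3.3) with batch as a block, which leaves 2 residual degrees of freedom. Benjamini-Hochberg adjustment ran over all models, with a threshold of 0.05. Shares of transcripts within genes were tested with diffSplice in limma on the same design, over 31429 transcripts of 9538 genes, with a Simes test per gene. CPM values use the same scaling. Scripts were tested on simulated data.

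The batch numbers pair the libraries. Deviations from the group mean correlated between both libraries of a batch at 0.38, 0.72 and 0.55. The labels do not tie batches to animals. With the block, p-values rest only on how the difference between knockdown and control varied over these 3 batches, moderated by the variance over all models.

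Values in each library are given for called members, for the highest and the 2 most different members of each role, for members with a called share and the 6 further ones whose transcript share differed most among shares that moved the same way in 3 batches, and for related pairs fixed by name. One member enters the counts and medians, but its own values are not reported here. Members described by batch were chosen after their values were seen. Alternatives were no block, leaving out each batch, other scalings and filters, limma-trend on log2(RPKM + 1) or log2(RPKM + 0.1), a correction for transcript length, reads summed by name and, for shares, leaving out transcripts under 10% of a gene. Removal of 5 models that may share reads with a copy (Snrpe, Snrpel, Snrpd2l, Snrpgl2 and Lsm6 on chromosome 13) and the contrast of batch 2 with the others were added after seeing the data. Promoter windows come from RefSeq on GRCr8, matched by symbol.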

Additional observations from a re-analysis of the deposited data

How the results depend on the processing

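The count of core spliceosome genes past the threshold in limma was 0 under every alternative run, and their median log2 fold change lay between -0.09 and 0.00, with -0.094 and -0.00046 as the lowest and highest on leaving out a batch. With no replicate block, so without the pairing by batch, 0 members passed and the median was -0.079, and 2 transcripts and 1 gene passed for shares. Leaving out a batch also gave 2 transcripts and 1 gene each time. Share tests gave 2 genes with diffSplice on log2(RPKM + 1), where the Lsm6 model on chromosome 13 was added to Cwc22 (limma diffSplice, adjusted p = 0.034), and 1 transcript with the stricter filter. Of 395 values of 33 genes, 379 kept their sign and side of the threshold, and 16 changed sign, none past the threshold. These were Prpf19 with library totals alone (0.026) and with limma-trend on log2(RPKM + 0.1) and log2(RPKM + 1) (0.021 and 0.021), Cwc27 with the same limma-trend fits (-0.324 and -0.227), without batch 1 (-0.070) and without batch 3 (-0.00058), Prpf4 with limma-trend (0.186 and 0.158), Lsm11 and Sf3b3 with the length correction (-0.035 and -0.050), Snrpb2 without batch 1 (-0.056), Cwc15, Sf3b3 and U2af1 without batch 2 (0.054, -0.0016 and 0.041), and Prpf38b without batch 3 (-0.036). On leaving out a batch the range was -0.178 to 0.054 for Cwc15, -0.070 to 0.102 for Cwc27, -0.036 to 0.127 for Prpf38b, -0.0016 to 0.035 for Sf3b3, -0.056 to 0.083 for Snrpb2 and -0.204 to 0.041 for U2af1. The cause was not tested. Nova1 lost its call with limma-trend, without the block, without batch 1 and without batch 2 (limma, adjusted p = 0.326 and 0.334, 1.00, 0.154 and 0.164), and its log2 fold change was -0.73 and -0.54 with limma-trend. The contrast of batch 2 passed for 32 members with the length correction and 35 without. With 3 libraries a group and 2 residual degrees of freedom, small differences in these genes may have been missed, and the size that could be detected was not tested. The model named Snrpe, at 18 reads in its lowest library, is limited by depth as well.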

Other observations

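Puf60, which helps U2AF at weak 3′ splice sites and is outside the name rule, was chosen after its values were seen. It was listed at 1.02, 11.4 and 0.945 RPKM in control and at 13.5, 27.9 and 11.9 RPKM in knockdown libraries of batches 1, 2 and 3. Its log2 fold change was 2.52 (SE 0.52; limma, adjusted p = 0.079), the largest of the 79 gene models in the lists outside the rule.

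Also chosen after their values were seen, Nhp2l1, a protein of the U4 snRNP, was at 64.3, 42.4 and 65.6 RPKM in control and 53.9, 37.2 and 54.5 RPKM in knockdown libraries, lower in each batch (log2 fold change -0.27, SE 0.05; limma, adjusted p = 0.062). Another model, named NHP2L1, was at 22.6, 16.4 and 24.2 RPKM in control and 19.0, 15.4 and 19.5 RPKM in knockdown libraries. Its log2 fold change was -0.28 (SE 0.07; limma, adjusted p = 0.112). How reads were divided between these models is not given in the sources used here. Bud31 of the Prpf19 complex and related factors was at 33.4, 35.6 and 35.0 RPKM in control and 29.7, 28.7 and 30.6 RPKM in knockdown, without overlap (log2 fold change -0.27, SE 0.06; limma, adjusted p = 0.089).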
